A study of Arabidopsis thaliana with 18 samples.

Results

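AT3G28510 and AT3G28540 are neighbouring Arabidopsis genes for AAA-type ATPases, and they were taken by locus. They are 2 of the 13355 genes for which the annotation used here named a probe set of 1 gene. Another 8730 probe sets were not named and 503 were named for several genes. A gene called measured below has a probe set named for it alone. Other genes may still have signals on the array. They were selected on the signal difference between salicylic acid (SA) and control arrays, for a large rise over all arrays. That comparison is therefore a description here and carries no test. Each gene had 1 probe set, and neither probe set's name carries the suffix that marks probes shared between genes. Whether RNA of one gene reaches the probes of the other was not tested.

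AAA ATPases are ring-forming enzymes that use ATP to unfold, pull apart or insert other proteins. These genes belong to a plant branch related to yeast BCS1, which places an iron-sulphur protein in the inner mitochondrial membrane. A better known Arabidopsis member, AT3G50930, sits in the outer mitochondrial membrane and is induced by SA, the hormone of defence against biotrophic pathogens. AT3G28510 is itself often met among transcripts induced by SA or infection, while what its protein does is little known.

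The 18 Affymetrix ATH1 arrays held total RNA of the accession Tsu-1. On 9 arrays the plants had received SA at 0.30 mM together with silwet, a surfactant that lets a spray spread, and on the other 9 arrays silwet alone. Silwet stood at 0.02% in both treatments. The titles number the silwet arrays 91 to 99 and the SA arrays 100 to 108, and every run of 3 numbers holds the replicate numbers 1, 2 and 3 once. These runs gave 3 triplets, with silwet 91 to 93 beside SA 100 to 102 in the first, 94 to 96 beside 103 to 105 in the second, and 97 to 99 beside 106 to 108 in the third. The project is known to have sampled plants at several times after spraying, but the labels used here tie no array to a time, a tissue or an age. Nothing in them says that arrays came from separate plants, so the spread between arrays may be technical. In RNA of whole samples, fewer expressing cells and less RNA per cell cannot be told apart.

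All arrays had been scaled to the same trimmed mean signal, and their median signals ran from 26.0 to 35.9. SA array 100 and silwet array 97 correlated least with the other arrays on the log2 scale, at means of 0.899 and 0.915, against 0.920 to 0.939 for the rest. The log2 ratio of the 3' to the 5' probe sets of actin, a sign of RNA integrity, was 2.51 ± 0.62 for SA and 2.48 ± 0.81 for silwet in the first triplet (SD, n = 3 each). It was 2.04 ± 0.37 for SA and 1.77 ± 0.20 for silwet in the second triplet, and 1.75 ± 0.28 for SA and 2.22 ± 0.21 for silwet in the third, with the highest single value, 3.42, on array 91. Of 8 leaf and root marker genes 4 had a probe set named for 1 gene here. Rubisco activase (RCA), at a mean log2 signal of 11.48, and the antenna genes LHCB4.1 and LHCB4.2, at 11.77 and 10.51, were bright, and the root gene PYK10 stood at 7.58. None of these 4 markers passed the limma test of SA against silwet in any triplet. Of all probe sets 3.24% passed in the first and 0% in the second and the third, so equal tissue make-up is not read from this. On SA array 100 RCA and LHCB4.1 had signals of 1085 and 1943, the lowest of all arrays, while LHCB4.2 and PYK10 were not lowest there.

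AT3G28510 was the gene with the larger contrast. In the first triplet its signal was 0.247, 3.80 and 3.17 on silwet arrays 91, 92 and 93. On SA arrays 100, 101 and 102 it was 82.5, 124.9 and 83.3. The silwet signals there were among the dimmest of the array, with 1.13%, 14.5% and 16.8% of probe sets below them, while 69.8% to 76.8% of probe sets lay below the SA signals.

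In the second triplet every signal of AT3G28510 lay above the 20th percentile of its array, with 38.1% to 46.2% of probe sets below the silwet signals. Silwet arrays 94, 95 and 96 gave 17.2, 28.0 and 23.3, and SA arrays 103, 104 and 105 gave 42.5, 27.4 and 50.2. The ranges met, since SA array 104 lay just under silwet array 95.

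In the third triplet silwet arrays 97, 98 and 99 gave 0.671, 12.1 and 12.6, and SA arrays 106, 107 and 108 gave 15.8, 35.0 and 20.3. The treatments did not overlap here, but 1 silwet array was near the bottom of its array and the other 2 were not. The SA signals were thus highest in the first triplet and the silwet signals lowest there.

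AT3G28540 gave a narrower picture, with signals from 10.6 to 71.7 over all arrays. In the first triplet silwet arrays 91, 92 and 93 had signals of 12.2, 20.6 and 10.6, and SA arrays 100, 101 and 102 had 43.6, 38.0 and 37.4. In the second triplet silwet arrays 94, 95 and 96 had 36.3, 25.2 and 20.1, and SA arrays 103, 104 and 105 had 71.7, 21.1 and 29.4. In the third triplet silwet arrays 97, 98 and 99 had 19.7, 23.3 and 26.7, and SA arrays 106, 107 and 108 had 32.5, 36.3 and 28.9. As for its neighbour, the treatments stood apart in the first and the third triplet and overlapped in the second. No signal of AT3G28540 fell under the 20th percentile of its array, whereas 4 of 9 silwet signals of AT3G28510 did, on arrays 91, 92, 93 and 97.

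**Figure D1:**
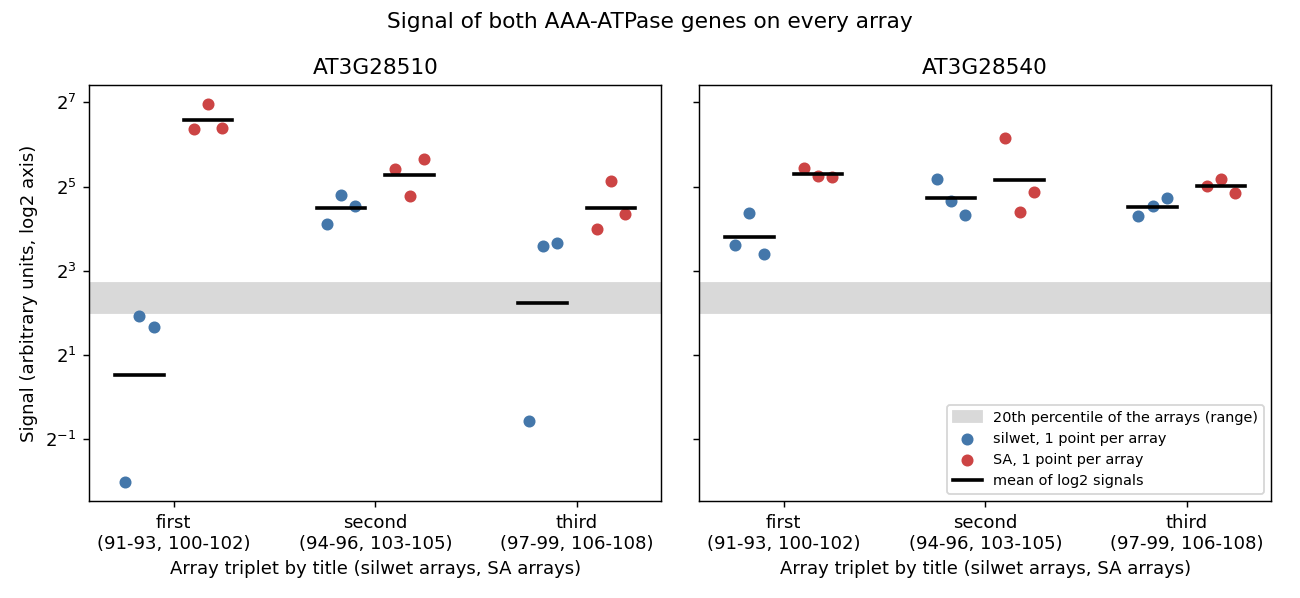
Signal of AT3G28510 (left) and AT3G28540 (right) on each of the 18 arrays, on a log2 axis, by title triplet, with silwet in blue and SA in red. Bars are means of the 3 log2 signals and the grey band is the range of the 20th percentile over arrays. AT3G28510 spans 0.247 to 124.9, with 4 silwet arrays under the band, and AT3G28540 spans 10.6 to 71.7, above it on every array.

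Complete separation of SA above silwet within a triplet, which both genes showed in the first and the third, was found for 9.25% of the 15922 probe sets tested in the first triplet, 4.13% in the second and 4.61% in the third. These shares are the background for the separation and nothing further is read from it, because the treatment contrast chose the genes. Arrays of the same replicate number gave SA above silwet in 3, 2 and 3 of 3 pairs for AT3G28510 in the first, second and the third triplet, and in 3, 2 and 3 of 3 for AT3G28540. The exception was replicate number 2 of the second triplet for both genes, where arrays 104 and 95 differed by -0.03 for AT3G28510 and by -0.26 for AT3G28540 on the log2 scale.

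On the log2 scale AT3G28510 averaged 0.52 ± 2.21 on silwet arrays and 6.57 ± 0.34 on SA arrays of the first triplet (SD, n = 3 each). The difference was 6.05 with an SE of 0.98 from the limma fit over 6 groups. In the second triplet the means were 4.49 ± 0.35 and 5.28 ± 0.45, a difference of 0.79 (SE 0.98). In the third they were 2.23 ± 2.43 and 4.48 ± 0.59, a difference of 2.26 (SE 0.98).

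Because log2 values of dim signals scatter widely, the size of these differences depends on how the dim arrays are treated. With signals under the 20th percentile of their array raised to that percentile, the difference of AT3G28510 was 4.19 in the first triplet, an 18.2-fold ratio, and 1.30 in the third, a 2.47-fold ratio. In the second triplet no signal was raised and the difference of 0.79 is a 1.73-fold ratio. Without array 97 the difference of the third triplet was 0.86. Without array 91 that of the first was 4.77.

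AT3G28540 averaged 3.79 ± 0.51 after silwet and 5.31 ± 0.12 after SA in the first triplet (log2 signal, SD, n = 3 each), a difference of 1.51 (SE 0.37) or 2.85-fold. The second triplet gave 4.72 ± 0.43 and 5.15 ± 0.91, a difference of 0.42 (SE 0.37). The third gave 4.53 ± 0.22 and 5.02 ± 0.17, a difference of 0.49 (SE 0.37). The difference of the second triplet rested on single arrays, and it was -0.08 without array 103, 0.23 without 96, 0.65 without 94 and 0.80 without 104. For both genes the difference was thus highest in the first triplet.

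**Figure D2:**
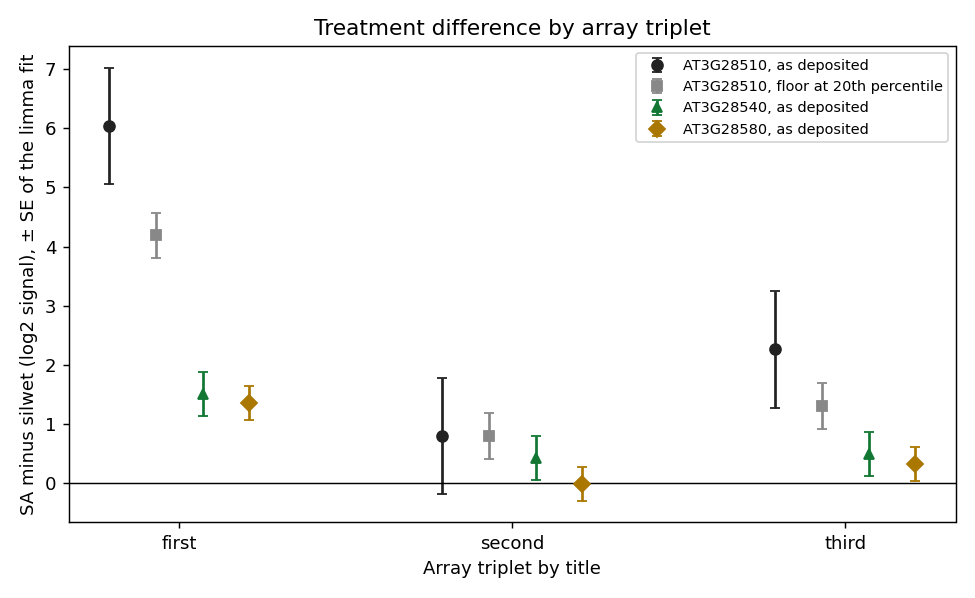
SA minus silwet on the log2 scale within each title triplet, with the SE of the limma fit, for AT3G28510 as deposited and after flooring dim signals (20th percentile), and for AT3G28540 and AT3G28580 as deposited. AT3G28510 stands at 6.05, 0.79 and 2.26 as deposited and at 4.19, 0.79 and 1.30 with the floor, and the other 2 genes at 1.51, 0.42 and 0.49 and at 1.35, -0.01 and 0.32.

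The next comparison asked whether the effect of SA differed between triplets. Its contrast is orthogonal to the mean difference that chose the genes, but independent of that choice only where all groups vary alike. For AT3G28510 they did not, with log2 SDs of 2.21 and 2.43 in the first and the third silwet triplet and at most 0.59 in the other groups. The gene also passed the filter on dim probe sets (a mean log2 signal of 3.21) through its SA arrays, whose mean was 5.44 against 2.41 for silwet. Its tests of triplets below carry these limits, and how far they depend on the choice was not tested. The change of AT3G28510 in the first triplet exceeded that in the second by 5.25 (SE 1.39), by 3.40 with the floor and by 2.09 with an offset of 16 added before log2. As deposited it did not pass, with a limma adjusted p of 0.121 for this contrast alone, which 0.295% of probe sets passed. The changes of the second and the third triplet differed by -1.47 (SE 1.39). The interaction did not pass by the limma F-test over all probe sets (adjusted p = 0.125), which called 1% of probe sets. With the replicate number as a block it passed (limma adjusted p = 0.0296), where 5.88% of probe sets passed. With the floor at the 20th percentile it passed as well (adjusted p = 0.0119, against 1.06% of probe sets), and without array 97 the adjusted p was 0.0281. The floor raises 4 of the 9 silwet signals and so takes out scatter of dim values. The SE of a treatment difference was 0.38 with the floor and 0.23 with the offset, against 0.98 as deposited. A smaller p under the floor or the offset is therefore not separate support. The offset gave 0.00687 where 1.34% passed, and array weights gave 0.00469 where 35.1% passed. The interaction did not pass without the filter (0.167), with quantile normalization (0.104) or without the mean-variance trend (0.143).

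For AT3G28540 the change in the first triplet exceeded that in the second by 1.09 (SE 0.52). The changes of the second and the third triplet differed by -0.07 (SE 0.52). The interaction did not pass in limma (adjusted p = 0.41), nor with the replicate block (adjusted p = 0.264).

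The next comparison was among silwet plants alone. All 3 signals of AT3G28510 in the first silwet triplet lay under the 20th percentile of their array, so a step from that triplet is measured against dim values. The second silwet triplet measured 3.96 higher than the first (SE 0.98) on the log2 scale as deposited, 2.10 higher with the floor and 1.07 higher with the offset. The third lay 2.26 below the second (SE 0.98). The limma F-test over the 3 silwet groups gave an adjusted p of 0.0619, where 4.53% of probe sets passed. With the replicate block it passed (limma adjusted p = 0.0136, against 12% of probe sets). With the floor it also passed (adjusted p = 0.00868, against 4.75%), under the limit on the floor given above. Leaving out array 97, 98 or 100 also made it pass, with adjusted p of 0.0104, 0.0319 and 0.043. The offset gave 0.0249 where 5.19% of probe sets passed, and array weights gave 0.000858 where 51.1% passed. The silwet groups did not pass without the filter (0.0823), with quantile normalization (0.0616) or without the mean-variance trend (0.0727). AT3G28540 measured 0.93 higher (SE 0.37) in the second silwet triplet than in the first and -0.19 (SE 0.37) from the second to the third, and it did not pass (limma adjusted p = 0.247).

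Among SA plants the first triplet stood highest rather than lowest. AT3G28510 differed by -1.29 (SE 0.98) from the first to the second SA triplet and by -0.79 (SE 0.98) from the second to the third. As deposited the 3 SA groups did not pass (limma F-test, adjusted p = 0.304, where 20.2% of probe sets passed). With the floor, under which no SA signal of this gene changes and the SE is 0.38, they passed (adjusted p = 0.00256, against 20.3%), and so they did with the offset (0.000469). Array weights gave 0.17 where 39.6% passed, and the replicate block called 29.4% of probe sets without adding this gene. AT3G28540 had -0.16 and -0.13 (SE 0.37 each) over the same steps, with a limma adjusted p of 0.861.

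Ordered by mean log2 signal, AT3G28510 ran from silwet of the first triplet (0.52) through silwet of the third (2.23), SA of the third (4.48), silwet of the second (4.49) and SA of the second (5.28) to SA of the first (6.57). Neighbours in this order overlapped except silwet and SA of the third triplet, and SA of the second and first. AT3G28540 ran from silwet of the first, the third and the second triplet (3.79, 4.53 and 4.72) to SA of the third, the second and the first (5.02, 5.15 and 5.31), and all neighbours overlapped. The SA group of the first triplet was the only group in which every array had both genes above the median signal of the array. Over the 9 silwet arrays the log2 signals of the genes had a Pearson correlation of 0.66 and a Spearman correlation of 0.70, and over the 9 SA arrays 0.36 and 0.60, as a description of arrays that share triplets and replicate numbers.

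Replicate number 1 had the lowest signal of AT3G28510 in 5 of 6 groups. In the fit with the block, number 2 exceeded number 1 by 1.66 and number 3 exceeded it by 1.50 (log2), and the limma F-test over numbers gave an adjusted p of 0.0744, where 17.5% of probe sets passed. For AT3G28540 number 1 was the lowest in 1 of 6 groups (adjusted p = 0.449). Arrays 91, 97 and 100 all carry number 1.

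The family was described next. Of 25 further genes of the BCS1-like branch 15 were measured, and 6 of these were bright enough to be tested. The rest, AT3G50930 among them, had no probe set named for 1 gene here and were not looked at. AT3G28580 lies a few genes further along the same stretch of chromosome 3. In the first triplet its signal was 24.1, 24.8 and 19.6 on silwet arrays and 48.0, 80.9 and 49.8 on SA arrays, and the treatments did not overlap. It rose by 1.35 (SE 0.29, limma adjusted p = 0.018), in a triplet where 3.24% of probe sets were called, 1.97% higher and 1.27% lower. The adjusted p was 0.075, 0.05, 0.0551 and 0.0758 without arrays 91, 92, 93 and 101, all at or above the threshold of 0.05. In the second and the third triplet AT3G28580 differed by -0.01 and 0.32 (SE 0.29 each).

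Unlike both neighbours, AT3G28580 was brighter in the first silwet triplet than later, with mean log2 signals of 4.50, 3.59 and 2.90. This difference between silwet triplets passed (limma F-test, adjusted p = 0.00895). Its interaction of SA with triplet did not pass (adjusted p = 0.174), nor with the replicate block (0.0835).

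The other 5 tested genes of the branch did not pass in the first triplet. AT2G46620 differed by 0.77 (SE 0.23, limma adjusted p = 0.071), and it passed with the replicate block (adjusted p = 0.0439, against 8.81% of probe sets). AT5G17760 differed by 0.57 (SE 0.41), AT5G57480 by 0.35 (SE 0.39), AT1G43910 by 0.28 (SE 0.34) and AT2G18190 by 0.03 (SE 0.34). The median of the 6 was 0.46 in the first triplet, beside -0.10 for all probe sets tested. It was 0.07 in the second, beside -0.03, and -0.06 in the third, beside 0.04. None of the 6 passed in the second or the third triplet or in the mean of the triplets, in which limma called 0% of all probe sets each time, while 367, 1112 and 532 had an unadjusted p under 0.05. The 9 measured but untested genes were AT3G28520, AT3G28560, AT3G28600, AT3G28610, AT5G17730, AT4G05340, AT4G25835, AT3G29800 and AT3G50940, with mean log2 signals of -0.74 to 3.09.

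AAA ATPases of other branches served as a second reference. Of 37 such genes 7 had a probe set named for 1 gene here, and these were tested. They included RCA, AT1G45000 of the proteasome base, AT4G24710 of meiotic chromosome pairing, and 4 genes of the mitochondrial ATAD3 type. None passed in any triplet in limma, where 3.24% of all probe sets passed in the first and 0% in the second and the third. In the first triplet 6 of the 7 lay below 0, with a median of -0.47 and values from -1.30 for AT5G16930 to 0.58 for AT4G24710. AT4G36580 differed by -1.07 (SE 0.40, adjusted p = 0.16, and 0.0329 with the replicate block).

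Genes of SA response and SA synthesis were set beside the ATPases in the same triplets. Of 32 such genes 6 had a probe set named for 1 gene here. The rest were not looked at, so the 6 do not stand for the whole list. In the first triplet 4 of the 6 rose by limma, where 3.24% of all probe sets were called and 1.97% rose. UGT76B1, which glucosylates SA and isoleucic acid, rose by 4.21 (SE 0.90, adjusted p = 0.0179) and AT5G52810, of pipecolic acid synthesis, by 1.64 (SE 0.27, adjusted p = 0.005). GRX480, a glutaredoxin that binds TGA factors, rose by 1.50 (SE 0.325, adjusted p = 0.0191). WRKY53, a transcription factor of senescence and defence, rose by 1.37 (SE 0.35, adjusted p = 0.0427). The count of 4 fell to 2 without array 91, 92, 93, 101 or 102, and the call of WRKY53 was lost for 12 of the 18 arrays left out in turn. The other 2, BSMT1, which methylates SA, and SAG101, a partner of EDS1, differed by -1.16 and 0.79 and did not pass, and SAG101 passed with the replicate block (adjusted p = 0.0243). None of the 6 passed in the second triplet or in the third, where limma called 0% of all probe sets each time. In the third all 6 lay below 0, with a median of -0.58, beside 0.04 for all probe sets tested.

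The values of the third triplet are set side by side here, and their difference between genes was not tested. UGT76B1 differed by 1.82 (SE 0.90) in the second triplet and by -0.10 (SE 0.90) in the third, and GRX480 by -0.03 and -1.14 (SE 0.325 each). AT3G28510 and AT3G28540 lay at 2.26 and 0.49 in the third. For AT3G28510 this was 1.30 with the floor and 0.86 without array 97. Both ATPases were chosen for a rise over all arrays, the third triplet included, so their place above 0 there is partly set by the choice. The interaction of treatment with triplet passed for AT5G52810 (limma F-test, adjusted p = 0.0196) and GRX480 (0.0261). Without array 91 these values were 0.0921 and 0.066. GRX480 also did not pass without array 92, 93, 99, 106 or 107. AT5G52810 and GRX480 were 2 of the 6 markers, against 1% of all probe sets, in a list chosen with earlier results of these data known. With the replicate block the interaction passed for 5 of the 6, against 5.88%.

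Position along the chromosome was examined with the 6 measured genes on each side and the 2 in between. In the first triplet AT3G28530, between the ATPases, differed by 0.10 (SE 0.28) on a probe set whose name carries the suffix for probes shared between genes, and AT3G28520, the other gene in between, was too dim to be tested, with mean log2 signals of 0.78 after silwet and 0.96 after SA. AT3G28500, next to AT3G28510, had a mean log2 signal of 4.90 under both treatments. Of the 7 tested genes that are not AT3G28510 or AT3G28540, 2 passed in the first triplet, AT3G28580 and AT3G28480, where 3.24% of all probe sets were called. AT3G28480 had 177.9, 210.0 and 160.9 on silwet arrays and 523.9, 383.6 and 309.3 on SA arrays, and the treatments did not overlap. It rose by 1.12 (SE 0.22, limma adjusted p = 0.0128, and 0.069 without array 91). Its interaction passed (limma F-test, adjusted p = 0.0361, where 1% of probe sets passed). With single arrays left out, that adjusted p ran from 0.0238 to 0.122 and was above 0.05 in most cases. AT3G28480 differed by -0.52 (SE 0.22) in the third triplet. AT3G28510 lay above 0 there, but it was chosen for its rise over all arrays.

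**Figure D3:**
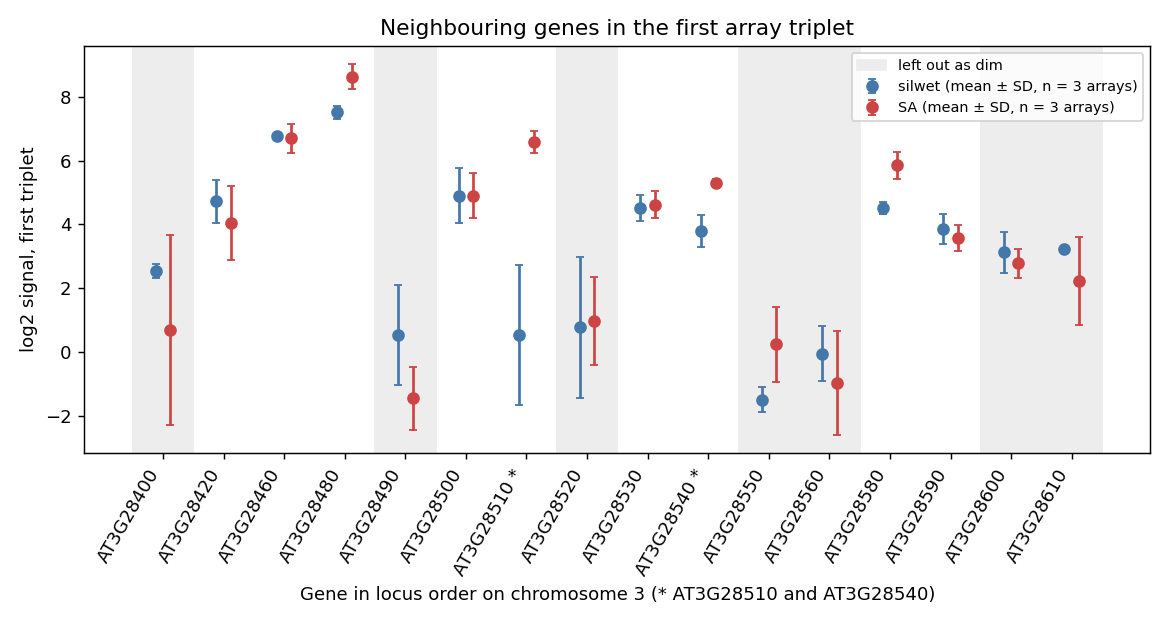
Mean log2 signal ± SD (n = 3 arrays) of 16 genes in locus order on chromosome 3 in the first title triplet, silwet in blue and SA in red, with genes too dim to be tested on grey. AT3G28510, AT3G28540, AT3G28580 and AT3G28480 stand higher after SA, at 6.57, 5.31, 5.85 and 8.63, while AT3G28530 and AT3G28500 lie at almost the same level under both treatments.

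The genes with the most similar profiles were ranked by Pearson correlation over the 18 arrays, on log2 signals floored at the 20th percentile, among 8645 genes. For AT3G28510 they were FLDH, a farnesol dehydrogenase (0.82), cwINV6, a fructan exohydrolase (0.82), AT5G54870 (0.80), AT3G47050, a glycosyl hydrolase (0.79), and ACLA-3, a subunit of the ATP-citrate lyase that makes cytosolic acetyl-CoA (0.78). AT3G29230 (0.77), AT3G56310 (0.76) and AT3G28540 itself (0.76) followed. For AT3G28540 they were QQT2 (0.84), AT5G09290 (0.80), AT3G18210 (0.80), AT3G07690 (0.78), FLDH (0.77), AT3G28510 (0.76), AT1G13750 (0.75) and GLR2.8, a glutamate receptor-like channel (0.72). FLDH stood in both lists.

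These correlations describe arrays that share triplets, replicate numbers and scaling, and they choose genes that differ with treatment, so no test is given. All genes of both lists lay above 0 in the first triplet, with differences of 0.49 to 1.51 apart from AT3G47050 and AT3G28510. AT3G47050 came nearest to AT3G28510 in size, at 3.52, 0.45 and 0.07 in the first, second and the third triplet. It had signals of 0.546, 11.0 and 4.54 on silwet arrays 91, 92 and 93 and of 15.2, 56.2 and 47.8 on SA arrays 100, 101 and 102, so it too was dimmest on array 91. FLDH was far brighter, with 121.3, 140.3 and 117.3 on silwet arrays 91, 92 and 93 and 194.3, 269.2 and 253.7 on SA arrays 100, 101 and 102. cwINV6 was the gene of the list for AT3G28510 with the highest difference in the third triplet, 0.84, beside 1.26 in the first and -0.02 in the second.

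**Figure D4:**
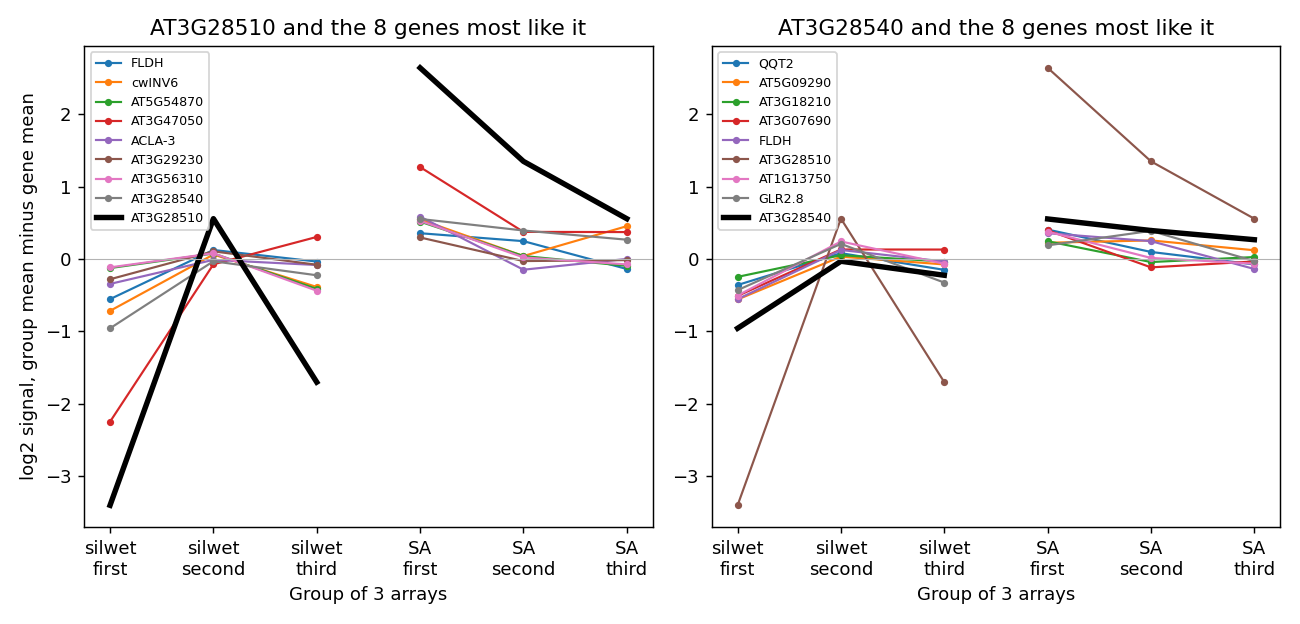
Group means of log2 signal (3 arrays each) after subtracting the mean over the 6 groups of each gene, for AT3G28510 (left, black) and AT3G28540 (right, black) and the 8 genes most correlated with each. In every line the first silwet group lies below the first SA group, and AT3G28510 has the widest range of the genes drawn, from 0.52 to 6.57 before the subtraction.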

How the data were processed

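The deposited values are linear intensities, 1 for each probe set on each array, from MAS5 per the submitters' processing notes, which state no version in the text used here. There were 22810 probe sets (64 controls) and no detection calls. No 2 arrays were identical. Genes were named from the platform annotation and the RefSeq table of TAIR10.1, the brightest probe set standing for a gene, and 8730 probe sets were not named here.

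Log2 values were tested after leaving out the lowest 30% of probe sets by mean, with limma 3.58.1 in R 4.3.3, as 6 groups of treatment and title triplet with a mean-variance trend. P-values were adjusted over 15922 probe sets (Benjamini-Hochberg, threshold 0.05). Errors beside differences are the SE of this fit. Its interaction test was checked on simulated data. Precision is limited by the number of arrays.

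The genes and lists were chosen with earlier results of these data known. The rule named both ATPases, the measured BCS1-like genes, 8 genes most like each, up to 4 genes of each other list by interaction p, and 6 measured genes on each side. UGT76B1, SAG101, AT1G45000 and AT4G24710 fall outside it and were named after their values were seen. Same-numbered arrays within a triplet deviated together from their group means (correlations of 0.216 to 0.481 in 9 of 9 pairs, and over 0.1 in 30 of 36 pairs across triplets), so the numbers appear to pair arrays.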

Additional observations from a re-analysis of the deposited data

How the results depend on the processing

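Both genes kept SA above silwet in every triplet under no filter, quantile normalization, an offset of 16, the floor, array weights, the replicate block and no trend, and without arrays 97 and 100, a setting chosen after seeing the data. Leaving out single arrays kept it too, except for AT3G28540 in the second triplet (-0.0838 to 0.7992, below 0 without array 103). Neither gene was left when the lowest 50% of probe sets were removed. The offset changed the differences of AT3G28510 in the first triplet, the third and their mean to 2.60, 0.71 and 1.28, and that of AT3G28540 in the first to 0.88. The floor gave 4.19 for AT3G28510 in the first triplet. Without arrays 97 and 100 its difference in the third triplet was 0.86, and leaving out single arrays gave 0.86 to 2.97.

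Under the offset, the floor, array weights, the replicate block and without arrays 97 and 100, the limma adjusted p of the interaction for AT3G28510 was 0.00687, 0.0119, 0.00469, 0.0296 and 0.0283 (0.0281 to 0.29 without single arrays). For its silwet triplets it was 0.0249, 0.00868, 0.000858, 0.0136 and 0.00767 (0.0104 to 0.17). Under no filter, quantile normalization and no trend neither passed, as in the main fit. The adjusted p was then 0.167, 0.104 and 0.143 for the interaction and 0.0823, 0.0616 and 0.0727 for the silwet triplets. For its SA triplets the offset and the floor gave 0.000469 and 0.00256. With array weights the silwet triplets of AT3G28540 had 0.0496. Array weights called 35.1% of all probe sets for the interaction and 51.1% for silwet triplets. The replicate block changed no other call of either gene.

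Counts of called probe sets moved more. The interaction count of 160 was 5586 with array weights, 936 with the replicate block, 369 without arrays 97 and 100, and 18 to 683 without single arrays. The silwet count of 721 was 8133 with weights, 1914 with the block and 255 to 1959 without single arrays. The SA count of 3221 was 6307 with weights and 2069 to 3580 without single arrays. For SA against silwet in the first triplet the count of 516 was 2045 with weights, 1402 with the block, 1227 without arrays 97 and 100 and 96 to 869 without single arrays. For the second and the third triplet it was 19 and 5380 with weights, and 0 to 3 and 0 to 1 without single arrays. For the mean of the triplets it was 4 with the offset, 4 with the floor, 257 with weights, 20 with the block, 4 without arrays 97 and 100 and 0 to 2 without single arrays. The fit with treatment only called 0. The cause of these shifts was not tested. Dim signals set the limit for AT3G28510, since 4 of its 9 silwet signals lay under the 20th percentile of their array.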
